A study of Mus musculus with 6 samples.

Results

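The 40 genes described here encode proteins that build ribosomes in the nucleolus of L929 cells, a mouse fibroblast line. They were chosen by symbol, from a list that takes in RNA polymerase I, the small nucleolar ribonucleoproteins and the assembly factors of both ribosomal subunits. All 40 symbols were found among the 21929 protein-coding genes of the deposited table, each in 1 row. The series compared L929 cells from co-culture with tumour cells, sorted by label into Biotin-negative cells, which had not interacted with the tumour cells, and Biotin-positive cells, which had. Each group has 3 RNA-seq libraries (replicates 1 to 3), made from total RNA, and the labels give 1 batch value for all 6. The labels call the tumour cells MFCSTCL without spelling this out, and they do not say how biotin reached the fibroblasts. All the cells, Biotin-negative ones included, were in the co-culture, so neither group stands for fibroblasts grown alone. Nothing in the labels ties the 3 libraries of a group to separate cultures, and the p-values therefore speak only of the scatter among these libraries, part or all of which may be technical.

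Ribosomes are made in the nucleolus, where RNA polymerase I transcribes the precursor of the ribosomal RNAs. Small nucleolar RNAs of the box C/D class guide methylation of that precursor and those of the box H/ACA class guide its conversion of uridine to pseudouridine, each bound to a fixed set of core proteins. A large early particle, the small subunit processome, forms on the precursor while it is being transcribed, and a separate line of assembly factors, GTPases and RNA helicases matures the large subunit. Fast-growing cells need this pathway in bulk, and the transcription factor MYC is known to switch on many of its genes by binding the E-box sequence in their promoters.

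The E-box core is shown first, since it is the promoter element best known for this gene family. Promoter sequences from RefSeq (build GRCm38.p6, 250 bases before to 50 bases after the start site) were found for 34 of the 40 genes. The letters CACGTG, which read the same on both strands, occurred in 7 of these 34 promoters (20.6%), against 1063 of the 8808 promoters found for all tested genes (12.1%). The 7 stretches follow, 5′ to 3′ on the strand of the gene, with the E-box core in capitals and up to 12 bases on either side.
Mybbp1a, chr11:72441355-72441376, plus strand: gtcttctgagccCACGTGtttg
Nop2, chr6:125131811-125131840, plus strand: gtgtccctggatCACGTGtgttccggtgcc
Pes1, chr11:3963965-3963994, plus strand: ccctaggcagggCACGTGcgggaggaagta
Tsr1, chr11:74898092-74898121, plus strand: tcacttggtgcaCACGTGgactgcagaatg
Utp20, chr10:88826765-88826789, minus strand: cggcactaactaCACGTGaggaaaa
Utp4, chr8:106893643-106893672, plus strand: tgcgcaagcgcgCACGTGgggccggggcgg
Wdr43, chr17:71616220-71616249, plus strand: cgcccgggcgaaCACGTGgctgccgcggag
Of these, the Nop2 element alone lay before the start site, 60 bases upstream. Searched on both strands, the letters CCGGAAG, the core bound by ETS factors, were found in 12 of 34 promoters (35.3%, against 21.9% of all promoters of tested genes). The longer palindrome known to bind the factor ZBTB33 was found in 0 of 34 (1.28% of all). A match is a string of letters and not a measured binding site.

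The nucleolar genes did not move as one. Expression is given in FPKM, fragment counts normalized to the length of the gene and the size of the library, and every gene was tested with limma on log2(FPKM + 1), with p-values adjusted over all 11029 tested genes (threshold 0.05). A gene is said to have risen or fallen where it passed this test, always in Biotin-positive relative to Biotin-negative cells. All 40 nucleolar genes passed the filter on low values, with 7.78 FPKM or more in every library. Of them, 11 rose (27.5%, against 37.8% of all tested genes), 16 fell (40%, against 36.1%) and 13 did not pass. The 27 that passed are 67.5% of the list, below the 73.9% of all tested genes that passed. For 29 of the 40 genes no library of one group fell within the range of the other (72.5%, against 76.9% of all tested genes). The choice of scaling touched this split: when every library was scaled to the same FPKM sum, 7 rose and 22 fell, and after quantile normalization 9 rose and 21 fell. All tested genes shifted in the same direction, from 4168 rises and 3985 falls to 3688 and 4502 at equal sums and to 4023 and 4149 after quantile normalization.

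The differences were small. The median absolute log2 difference of the 40 genes was 0.20, against 0.31 for all tested genes. A log2 difference of at least 0.5 was reached by 3 of the 40 genes (7.5%), against 30.4% of all tested genes, and those 3 were Nhp2, Nob1 and Rrs1. With signs kept, the median was -0.06, against 0.01 for all tested genes. Summed over the 40 genes, Biotin-negative libraries held 2077, 2040 and 2081 FPKM and Biotin-positive libraries 2066, 2091 and 2030 FPKM, so the sums of the groups overlapped. As a share of all FPKM in a library these sums were 0.610, 0.604 and 0.612% in Biotin-negative and 0.579, 0.587 and 0.580% in Biotin-positive libraries, which do not overlap, because the FPKM of all genes summed to more in the Biotin-positive libraries (349753 to 356681) than in the others (337771 to 340511). In bulk RNA a smaller share of expressing cells and less transcript per cell cannot be told apart.

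**Figure D1:**
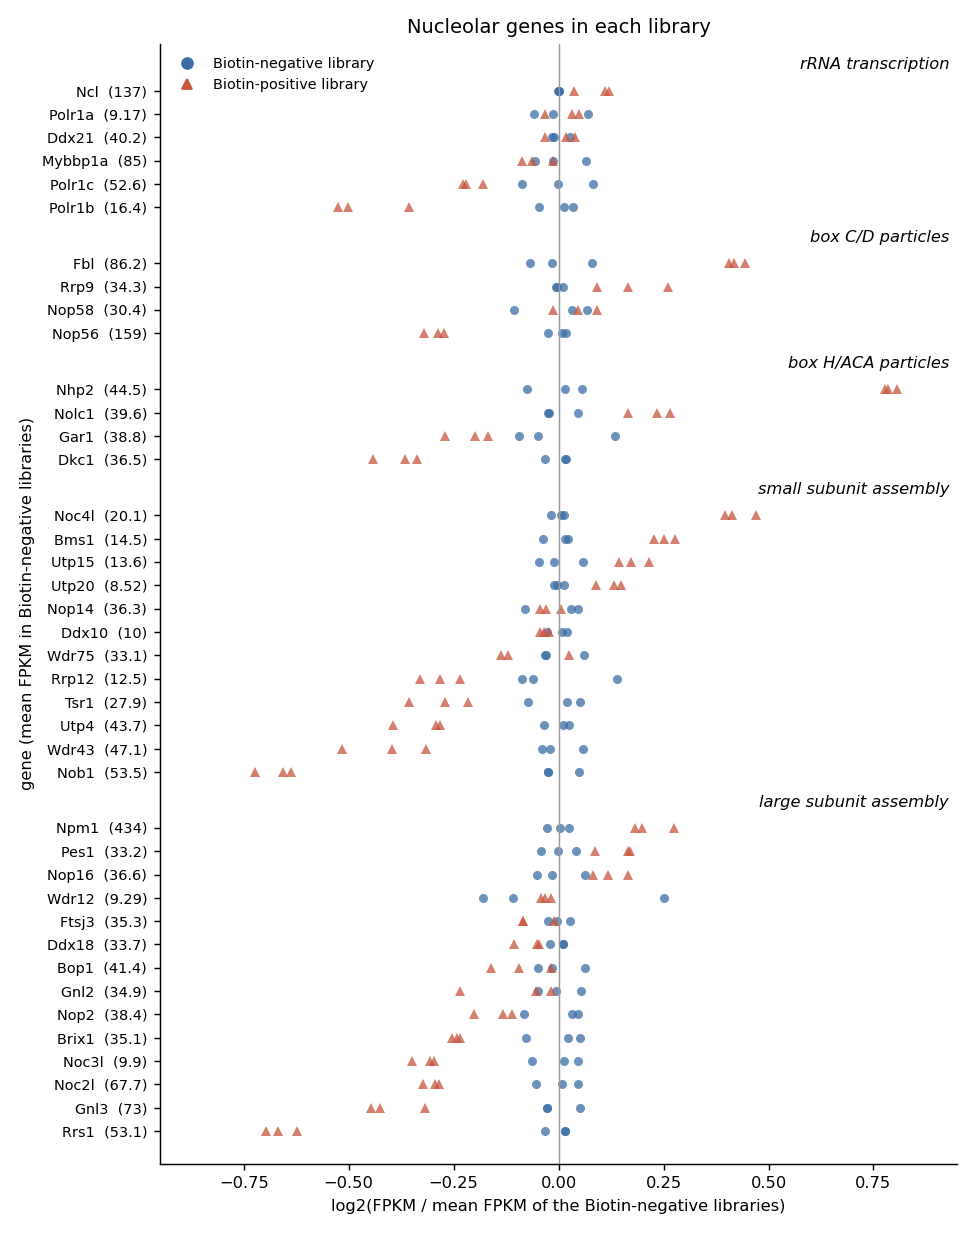
Each row is 1 of the 40 nucleolar genes, with its mean FPKM in Biotin-negative libraries in brackets; points give each library as log2 of its FPKM over that mean (circles Biotin-negative, triangles Biotin-positive). The triangles lie on both sides of 0 in every step, and they stand farthest out for Nhp2 on the right and for Nob1 and Rrs1 on the left.

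**Figure D2:**
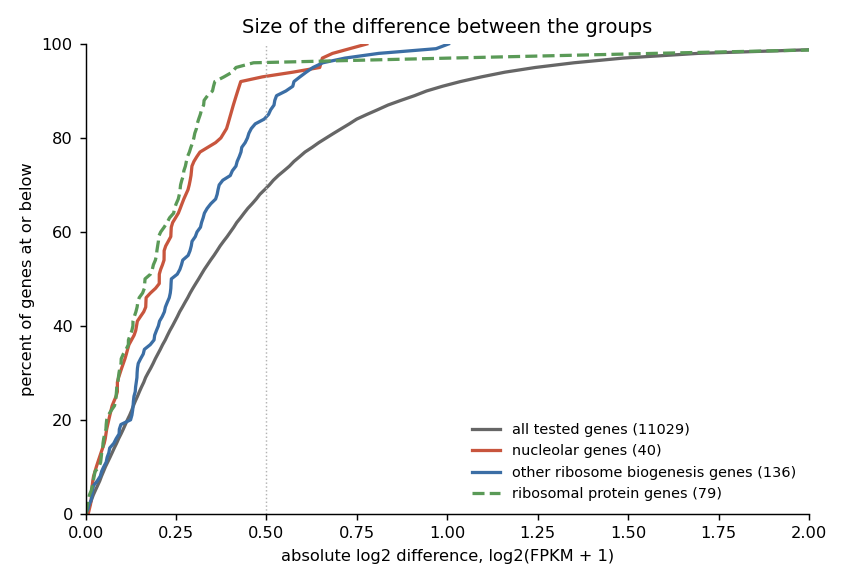
Cumulative percent of genes (vertical axis) against the absolute log2 difference on log2(FPKM + 1) (horizontal axis, cut at 2), for the 40 nucleolar genes, 136 other ribosome biogenesis genes, 79 ribosomal protein genes and all 11029 tested genes; the dotted line marks 0.5. The curve of the nucleolar genes rises faster than that of all tested genes, with medians of 0.20 and 0.31.

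RNA polymerase I and the factors around it were split. Polr1b, the second-largest subunit of the enzyme (GRCm38, chromosome 2, 129100995 to 129126594), was measured at 16.5, 16.7 and 15.8 FPKM without biotin and at 12.8, 11.5 and 11.3 FPKM with it. The groups did not overlap, and it fell by 0.43 on the log2 scale (SE 0.0530, limma adjusted p = 9.57e-05). Polr1c, a subunit shared by polymerases I and III, stood at 49.5, 52.6 and 55.7 against 45.1, 44.9 and 46.4 FPKM, and fell by 0.20 (limma adjusted p = 0.00302). Polr1a, which forms the catalytic core together with Polr1b, gave 9.63, 8.81 and 9.09 against 9.38, 8.97 and 9.49 FPKM. Those values overlap, and the difference of 0.02 had a 95% interval from -0.10 to 0.13. The ratio of Polr1b to Polr1a in a library was 1.71, 1.9 and 1.74 in Biotin-negative and 1.36, 1.29 and 1.20 in Biotin-positive libraries, without overlap.

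Ncl, nucleolin, an abundant RNA-binding protein of the nucleolus, gave 136.9, 137 and 137 FPKM in Biotin-negative and 147.8, 148.8 and 140.6 FPKM in Biotin-positive libraries. It rose by 0.09 (limma adjusted p = 0.0277), but the direction turned to -0.02 after quantile normalization (adjusted p = 0.559). With equal library sums its adjusted p was 0.366, and it was from 0.0549 to 0.0931 when any single library other than Biotin-positive replicate 3 was left out. Its Biotin-negative values lay very close together (SD 0.0508 FPKM). The helicase Ddx21, which works in both transcription and processing of ribosomal RNA, stood at 39.8, 41.0 and 39.9 against 41.3, 40.7 and 39.3 FPKM, with an interval of the difference from -0.07 to 0.08. Mybbp1a, a nucleolar protein that binds MYB and polymerase I factors, gave 89.0, 81.7 and 84.3 against 84.2, 79.99 and 81.3 FPKM (interval from -0.14 to 0.04). Neither Ddx21 nor Mybbp1a passed, and both had overlapping groups, though Mybbp1a passed as lower with equal library sums (adjusted p = 0.0195) and after quantile normalization (adjusted p = 0.00164).

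The other polymerase I genes, drawn from a list of 137 further ribosome biogenesis genes, were split too. Of 13 tested, 4 rose (30.8%, against 37.8% of all tested genes), 5 fell (38.5%, against 36.1%) and 4 did not pass. The 4 that rose were Polr1d, Rrn3, Ttf1 and Tcof1. Polr1d, the partner of Polr1c in the enzyme, rose from 48.0 ± 2.74 to 64.5 ± 4.74 FPKM (mean ± SD, n = 3). Tcof1, treacle, which recruits factors to ribosomal DNA, rose from 18.8 ± 1.61 to 28.6 ± 0.509 FPKM. Ubtf, the upstream binding factor that keeps ribosomal DNA open, fell from 45.4 ± 2.21 to 33.03 ± 0.751 FPKM. Of the promoter selectivity factor subunits, Taf1a, Taf1b and Taf1c fell and Taf1d, at 24.9 and 25.7 FPKM, did not pass.

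Among the proteins of box C/D particles, Fbl rose and Nop56 fell. Fbl, fibrillarin, is the methyltransferase of the particle (chromosome 7, 28169710 to 28179269). It stood at 91.1, 82.3 and 85.3 FPKM in Biotin-negative and at 114, 117 and 115 FPKM in Biotin-positive libraries, without overlap, and rose by 0.42 (SE 0.0396, limma adjusted p = 1.79e-05). A near-identical match in another annotated gene covers 57.6% of its transcript, so its level is uncertain. Nop56, a scaffold protein of the same particle (chromosome 2, 130274430 to 130279313), went the other way, from 159.9, 156 and 161 FPKM to 132, 130.3 and 127 FPKM. It fell by 0.29 (SE 0.0279, limma adjusted p = 1.96e-05), and 39.0% of its transcript has such a match.

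Nop58, the partner of Nop56 in the scaffold, gave 31.8, 28.2 and 31.0 against 32.3, 31.4 and 30.1 FPKM and did not pass, with an interval from -0.07 to 0.16. Rrp9, the protein particular to the U3 particle, which guides early cleavage of the precursor, rose from 34.3 ± 0.219 to 38.6 ± 2.27 FPKM (log2 difference 0.17, limma adjusted p = 0.00811). The ratio of Fbl to Nop56 within a library was 0.570, 0.527 and 0.530 in Biotin-negative and 0.868, 0.900 and 0.905 in Biotin-positive libraries. A ratio within a library does not change when all its values are multiplied by a constant factor. Quantile normalization can change it, and the ratios given here are of the deposited FPKM. The gene pairs for such ratios were picked after the values were seen, so the ratios are given without a test.

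Among the genes of box H/ACA particles the largest rise of the 40 stood beside falls. Nhp2 (ENSMUSG00000001056), a core protein of the particle that is also part of telomerase (chromosome 11, 51619735 to 51623714), stood at 42.2, 46.2 and 45.0 FPKM in Biotin-negative and at 77.7, 76.3 and 76.6 FPKM in Biotin-positive libraries. Every Biotin-positive value lay above every Biotin-negative one, a rise of 0.78 (SE 0.0382, limma adjusted p = 3.27e-07, ratio of means 1.73). It is the largest difference of the 40 genes, and 85.0% of all tested genes had a smaller or equal one. The Nhp2 promoter holds the ETS core 23 bases before the start site, on the strand of the gene (chr11:51619738-51619768, plus strand, core in capitals).
Nhp2: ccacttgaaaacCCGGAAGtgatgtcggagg

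Dkc1, dyskerin, the pseudouridine synthase to which Nhp2 and its partners bind (chromosome X, 75095854 to 75109777), fell from 35.6, 36.8 and 36.9 FPKM to 28.3, 28.9 and 26.8 FPKM. The log2 difference was -0.37 (SE 0.0383, limma adjusted p = 3.22e-05), and the groups did not overlap. Gar1, a core protein that binds dyskerin directly, fell from 38.8 ± 3.31 to 33.5 ± 1.22 FPKM (limma adjusted p = 0.0130). Nolc1, a phosphoprotein that escorts both classes of particle, rose from 39.6 ± 1.14 to 46.2 ± 1.62 FPKM (limma adjusted p = 0.000871). From the further genes, Nop10, the remaining core protein, rose from 26.9 ± 0.971 to 36.5 ± 1.87 FPKM.

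Within a library the Nhp2 value was 1.18, 1.26 and 1.22 times that of Dkc1 in Biotin-negative cells and 2.75, 2.64 and 2.86 times in Biotin-positive cells. Nop10 went from 0.738 ± 0.0297 to 1.305 ± 0.0260 times Dkc1. The ratio of Gar1 to Dkc1 overlapped between groups, at 1.07 ± 0.113 and 1.20 ± 0.0611. Of the 4 core genes, then, Nhp2 and Nop10 rose, while Dkc1 and Gar1 fell.

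Further genes of both particle classes were mostly higher. Of 11 tested, 8 rose (72.7%, against 37.8% of all tested genes) and 3 did not pass, with a median log2 difference of 0.33. At equal library sums Pih1d1 and Shq1 no longer passed and Nufip1 passed as lower, and after quantile normalization Pih1d1 did not pass. Snu13, the core protein that first binds the box C/D RNA, rose from 28.9 ± 0.215 to 36.2 ± 1.22 FPKM. Ruvbl1 and Ruvbl2 form an ATPase pair that helps assemble box C/D particles. Ruvbl1 went up from 25.3 ± 0.402 to 39.05 ± 1.75 FPKM and Ruvbl2 from 49.5 ± 1.95 to 71.5 ± 1.82 FPKM, and both passed. Ruvbl1 has a near-identical match over 81.7% of its transcript, Ruvbl2 over 18.5% and Snu13 over 18.5%. Znhit3, an assembly factor of the same particles, rose from 6.08 ± 0.250 to 13.1 ± 1.05 FPKM. Of its exon bases 13.0% overlap the neighbouring gene Myo19, whose reads cannot be told apart if counting ignored the strand. A near-identical match to Myo19 covers 27.8% of the Znhit3 transcript.

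**Figure D3:**
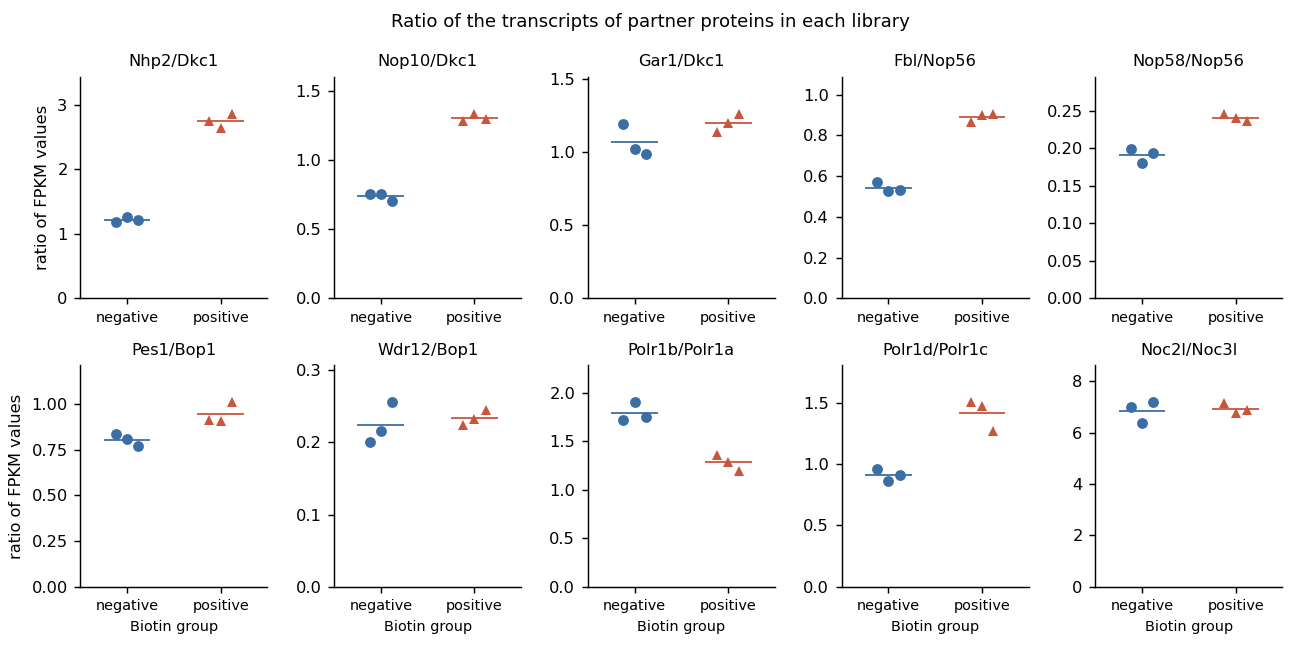
Ratio of the FPKM values of 2 partner proteins in each of the 6 libraries (circles Biotin-negative, triangles Biotin-positive, line the mean, every vertical axis from 0). The groups do not overlap for 7 of the 10 pairs, farthest for Nhp2 over Dkc1, and overlap for Gar1 over Dkc1, Wdr12 over Bop1 and Noc2l over Noc3l. The pairs were picked after the values were seen, and further pairs, such as Noc4l over Nop14, are not drawn. For single genes the groups do not overlap in 76.9% of all tested genes, and the share over all possible pairs was not computed.

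Small subunit factors included the largest fall. Nob1 (ENSMUSG00000003848), the endonuclease that makes the last cut of 18S ribosomal RNA in the cytoplasm (chromosome 8, 107412486 to 107425051), stood at 52.6, 52.7 and 55.4 FPKM in Biotin-negative and at 34.4, 32.4 and 34.0 FPKM in Biotin-positive libraries. It fell by 0.66 (SE 0.0376, limma adjusted p = 7.89e-07), to 0.628 times the Biotin-negative mean, with no overlap. Wdr43, a processome protein that is loaded on the precursor during transcription, stood at 49.0, 45.8 and 46.4 against 35.7, 37.8 and 32.9 FPKM and fell by 0.40 (limma adjusted p = 0.000146). Noc4l, which works in small subunit assembly together with Nop14, stood at 19.9, 20.3 and 20.2 against 27.9, 26.5 and 26.8 FPKM and rose by 0.41 (limma adjusted p = 1.2e-05). Nob1 and Noc4l thus stood well outside the spread of their libraries, in opposite directions.

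In all, the 12 small subunit genes had 3 rises (25%), 5 falls (41.7%) and 4 that did not pass, and a median of -0.05. Of all tested genes 37.8% rose and 36.1% fell. The GTPase Bms1 rose from 14.5 ± 0.331 to 17.3 ± 0.303 FPKM and the processome protein Utp15 from 13.6 ± 0.501 to 15.4 ± 0.384 FPKM, the latter with an adjusted p of 0.0502 at equal library sums. Utp4, which belongs to the same early subcomplex as Utp15 and Wdr43, fell from 43.7 ± 0.944 to 34.9 ± 1.49 FPKM. The Bms1 relative Tsr1 fell from 27.9 ± 1.24 to 22.98 ± 1.12 FPKM and the export factor Rrp12 from 12.5 ± 1.09 to 10.3 ± 0.340 FPKM. Tsr1 shares 32.3% of its exon bases with the gene Srr, so part of its signal could be that of Srr.

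Nop14, the partner of Noc4l, gave 37.0, 34.3 and 37.5 against 36.4, 35.2 and 35.5 FPKM, with an interval of the difference from -0.11 to 0.07. The ratio of Noc4l to Nop14 in a library was 0.555 ± 0.0309 in Biotin-negative and 0.757 ± 0.00737 in Biotin-positive libraries. Ddx10, a helicase of early small subunit assembly, gave 10.1, 10.2 and 9.83 against 9.87, 9.78 and 9.72 FPKM (interval from -0.13 to 0.07). Wdr75, of the same early subcomplex as Utp4, gave 34.5, 32.4 and 32.4 against 30.1, 33.7 and 30.5 FPKM (interval from -0.19 to 0.04), and passed as lower without Biotin-positive replicate 2 (adjusted p = 0.0380) and at equal library sums (adjusted p = 0.0319). Utp20, a large scaffold protein of the processome, gave 8.46, 8.60 and 8.50 against 9.44, 9.06 and 9.33 FPKM. Its groups did not overlap, but its adjusted p of 0.0502 just missed the threshold (interval from 0.01 to 0.21), and it passed as higher under 5 of the 16 alternatives.

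Among the 46 further small subunit genes, 15 rose (32.6%, against 37.8% of all tested genes), 16 fell (34.8%, against 36.1%) and 15 did not pass. The largest falls were those of Imp3, a protein bound to the U3 RNA (73.0 ± 2.93 to 42.6 ± 2.11 FPKM), and of Rcl1, a cyclase-like processome protein (31.3 ± 1.70 to 18.6 ± 1.62 FPKM).

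In the large subunit group the strongest change was again a fall. Rrs1, which brings the 5S ribonucleoprotein into the early particle (ENSMUSG00000061024, chromosome 1, 9545408 to 9547455), stood at 51.9, 53.7 and 53.7 FPKM in Biotin-negative and at 33.4, 34.5 and 32.7 FPKM in Biotin-positive libraries. It fell by 0.65 (SE 0.0337, limma adjusted p = 4.55e-07). Gnl3, nucleostemin, a GTPase known from stem and tumour cells, stood at 75.6, 71.6 and 71.6 against 54.3, 58.5 and 53.6 FPKM and fell by 0.39 (limma adjusted p = 4.01e-05). Noc2l, which also binds histones, stood at 69.9, 65.2 and 68.1 against 55.6, 54.2 and 55.3 FPKM and fell by 0.29 (limma adjusted p = 6.56e-05). None of these 3 genes had overlapping groups, though 20.9% of the exon bases of Noc2l overlap the gene Samd11.

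The 14 large subunit genes had 3 rises (21.4%, against 37.8% of all tested genes), 6 falls (42.9%, against 36.1%) and 5 that did not pass. The median of these 14 genes was -0.09. Noc3l, which forms a complex with Noc2l, fell from 9.90 ± 0.380 to 7.95 ± 0.150 FPKM. Their ratio overlapped between the groups (6.85 ± 0.418 and 6.93 ± 0.203), a pair whose transcripts fell side by side. Brix1, an early assembly factor, fell from 35.1 ± 1.62 to 29.6 ± 0.193 FPKM, and Nop2, an RNA methyltransferase of 28S ribosomal RNA, from 38.4 ± 1.87 to 34.7 ± 1.14 FPKM. The Nop2 call (limma adjusted p = 0.0174) was lost without Biotin-negative replicate 1 (adjusted p = 0.0585), Biotin-negative replicate 3 (0.0588) or Biotin-positive replicate 2 (0.0651).

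Npm1, nucleophosmin, a histone and ribosome chaperone, had the highest level of the 40 genes at 426, 435 and 441 FPKM in Biotin-negative libraries. It rose to 492, 525 and 498 FPKM (log2 difference 0.22, limma adjusted p = 0.000361). Nop16, a nucleolar assembly factor, rose from 36.6 ± 1.49 to 39.9 ± 1.15 FPKM, a call lost at equal library sums (adjusted p = 0.204), after quantile normalization (0.170), and without Biotin-negative replicate 1 or 2 or Biotin-positive replicate 2 or 3 (adjusted p from 0.0570 to 0.0888).

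Pes1, Bop1 and Wdr12 form the PeBoW complex, which is needed to process the RNAs of the large subunit. Pes1 rose from 33.2 ± 0.960 to 36.7 ± 1.21 FPKM (limma adjusted p = 0.0109), with an adjusted p of 0.105 at equal library sums and 0.0592 after quantile normalization. Bop1 gave 41.0, 40 and 43.2 against 40.9, 38.8 and 37.0 FPKM (interval from -0.19 to 0.02). It passed as lower at equal library sums (adjusted p = 0.0110), after quantile normalization (0.0139) and without Biotin-positive replicate 1 (0.0457). Wdr12 gave 8.20, 8.62 and 11.06 against 9.18, 9.03 and 9.08 FPKM, and Biotin-negative replicate 3 stood above the rest, which left the widest interval of the 40 genes, from -0.23 to 0.20.

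The remaining 3 genes did not pass, and none had an interval reaching 0.25 in size on either side. The GTPase Gnl2 gave 36.2, 33.7 and 34.7 against 33.6, 34.4 and 29.6 FPKM (interval from -0.23 to 0.03). The helicase Ddx18 gave 34.0, 33.9 and 33.2 against 31.3, 32.7 and 32.6 FPKM (interval from -0.14 to 0.01), and a near-identical match covers 87.8% of its transcript. The methyltransferase Ftsj3 gave 35.2, 35.9 and 34.7 against 35.0, 33.2 and 33.2 FPKM (interval from -0.14 to 0.02). All 3 passed as lower at equal library sums (adjusted p from 0.00943 to 0.0224) and after quantile normalization (from 0.0146 to 0.0335).

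**Figure D4:**
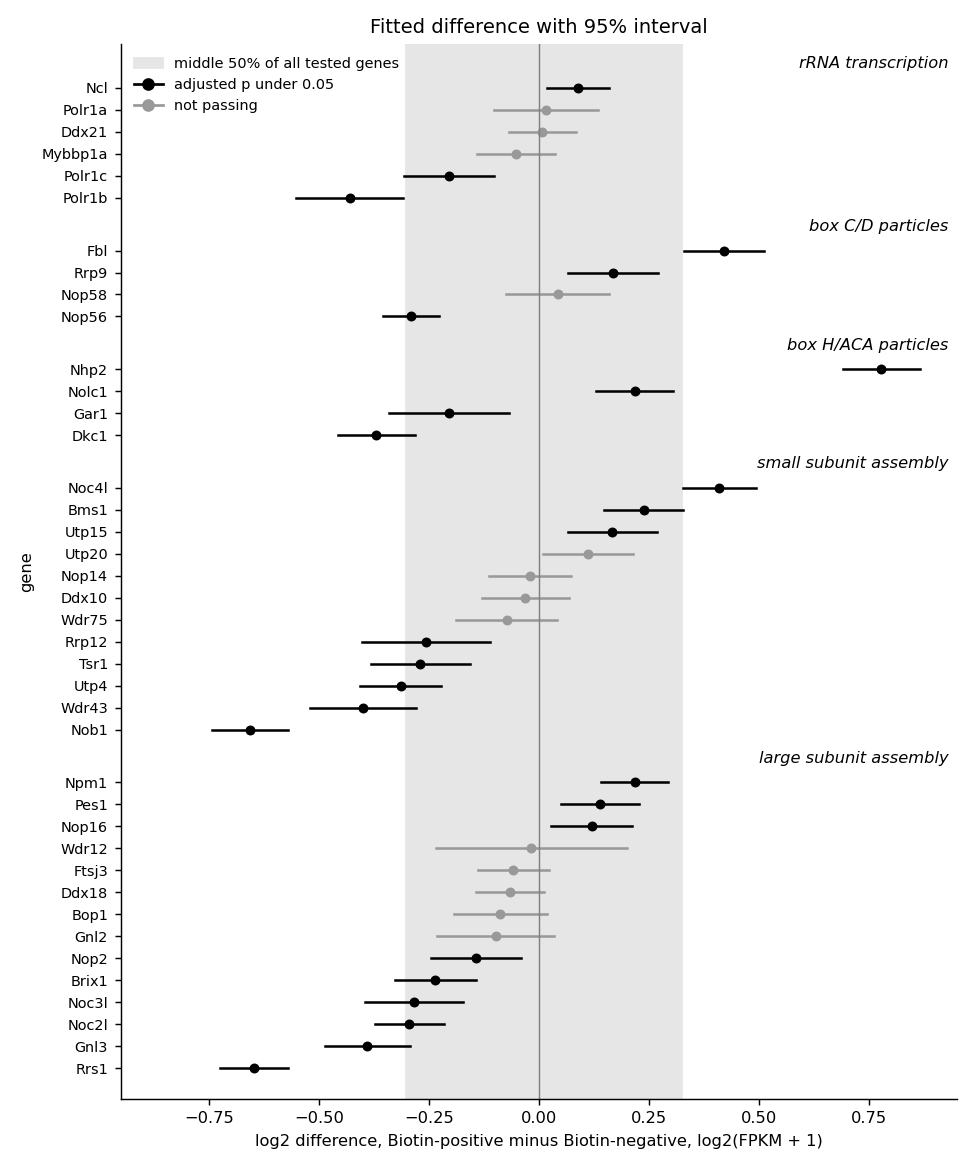
Fitted log2 difference (Biotin-positive minus Biotin-negative, on log2(FPKM + 1)) of each of the 40 nucleolar genes with its 95% interval, by step; black marks genes with an adjusted p under 0.05, and the grey band holds the middle 50% of all tested genes. Most intervals lie within or touch the band. Farthest from it are Nhp2 to its right at 0.78, and Nob1 and Rrs1 to its left at -0.66 and -0.65. The intervals of Fbl and Noc4l also lie wholly to the right of the band, and that of Polr1b to the left.

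Among 50 further large subunit genes 15 rose (30%, against 37.8% of all tested genes), 25 fell (50%, against 36.1%) and 10 did not pass. Rrp1b, a regulator of phosphatase activity in the nucleolus, fell from 16.2 ± 0.302 to 10.06 ± 0.173 FPKM and the assembly factor Ppan from 39.5 ± 1.54 to 25.2 ± 0.928 FPKM. Eif6, which keeps the 2 subunits from joining too early, rose from 63.3 ± 1.42 to 101.3 ± 2.69 FPKM. Sbds, which helps remove Eif6 from the new subunit, rose from 27.6 ± 1.81 to 39.1 ± 0.588 FPKM.

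Genes of the RNA exosome, which trims the ends of ribosomal RNA precursors, were counted together with other trimming genes, among them Xrn2, Isg20l2 and Eri1. This exosome and trimming set had 11 rises, 2 falls and 3 genes not passing among 16 tested. In percent, 68.8% were higher and 12.5% lower, against 37.8% and 36.1% of all tested genes. These counts are for the deposited scaling only. Of the 16 genes, 2 passed with a log2 difference of at least 0.5 (12.5%, against 30.4% of all tested genes). The exosome ring subunit Exosc8 rose from 23.9 ± 0.967 to 46.2 ± 1.98 FPKM. Exosc9, of the same ring, rose from 10.4 ± 0.754 to 21.8 ± 0.541 FPKM. In Exosc9, 10.8% of the exon bases overlap the cyclin gene Ccna2 next to it, and a near-identical match to Ccna2 covers 18.6% of the transcript. Exosc6 lay below the filter and was not tested, and all of its exon bases overlap the gene Aars. Over all 136 tested genes of the further list there were 53 rises (39.0%), 48 falls (35.3%) and 35 that did not pass. Those shares are near the 37.8% and 36.1% of all tested genes. At equal library sums 45 of the 136 rose and 56 fell. The 136 genes had a median of -0.00 and a median absolute difference of 0.24.

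**Figure D5:**
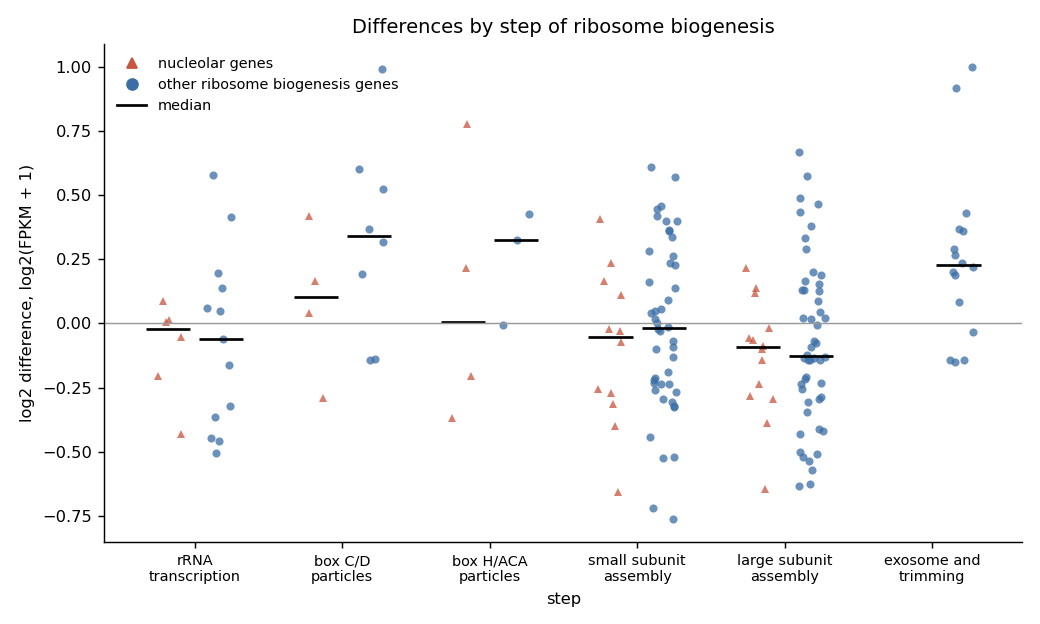
Log2 difference on log2(FPKM + 1) of each nucleolar gene (triangles) and each further ribosome biogenesis gene (circles) by step, with the median of each set as a line; sideways spread of the points has no meaning. Both assembly steps hold genes on both sides of 0. The further genes of the box C/D, the box H/ACA and the exosome and trimming sets have medians of 0.34, 0.33 and 0.23.

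Small nucleolar RNAs are often carried in introns of genes for nucleolar proteins. In the GENCODE vM21 annotation 7 of the 40 genes (17.5%) hold at least 1 annotated small nucleolar RNA gene on their own strand, against 1.78% of the tested genes that have an annotated transcript. These are Ncl, Nop56, Nop58, Dkc1, Wdr43, Tsr1 and Gnl3. Of them 5 fell, 1 rose (Ncl) and 1 did not pass (Nop58), with a median of -0.29, against -0.05 for the other 33 genes. Of all 195 tested host genes 88 rose and 58 fell, with a median of 0.07.

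Of the 7 genes with an E-box core, Pes1 rose, Nop2, Tsr1, Utp4 and Wdr43 fell, and Mybbp1a and Utp20 did not pass (median -0.14). Of the 12 with an ETS core 3 rose, 8 fell and 1 did not pass (median -0.20). Over all 40 genes there were 11 rises and 16 falls, and over all tested genes 37.8% rose and 36.1% fell. No test of genes with against genes without either core was made. Myc itself stood at 191, 180.2 and 181 FPKM in Biotin-negative and at 148, 145 and 149.6 FPKM in Biotin-positive libraries, and fell by 0.32 (SE 0.0321, limma adjusted p = 2.7e-05). Across the 40 genes the log2 difference showed little relation to transcript length (Pearson's r -0.02, Spearman's rho 0.07) or to mean level (0.09 and -0.04). Genes are not independent replicates, so these correlations are descriptions.

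The ribosomal proteins, which these factors assemble, had more rises than falls. Of 79 cytosolic ribosomal protein genes 39 rose (49.4%, against 37.8% of all tested genes), 12 fell (15.2%, against 36.1%) and 28 failed the test. The 64.6% that passed lie below the 73.9% of all tested genes, and these counts are for the deposited scaling only. The median of the 79 genes was 0.10. Only Rpl26 and Rpl29 passed with a log2 difference of at least 0.5 (2.53%, against 30.4% of all tested genes). With genes that did not pass included, differences of the 79 genes ranged from -0.35 to 2.99. These genes are known for their many processed copies, which were not searched for here, so single levels are uncertain. Their summed level was 12.3 to 12.9% of all FPKM in Biotin-negative and 12.8 to 13.4% in Biotin-positive libraries, and these ranges overlap. No test of the nucleolar against the ribosomal protein genes was made.

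Other facts of the libraries stand beside all of these results. The marker counts that follow are to be read against the 37.8% of all tested genes that rose and the 36.1% that fell. Proliferation markers (Mki67, Top2a, Pcna, Mcm2, Mcm5, Ccnb1, Cdk1 and Rrm2) rose in 8 of 8 cases, from a summed 271.5 to 276 FPKM to 638 to 660 FPKM. Of 12 fibroblast markers 8 were expressed well enough to test, of which 2 rose and 6 fell. The list summed to 3912 to 4128 FPKM in Biotin-negative and 2622 to 2694 FPKM in Biotin-positive libraries, while Thy1, Dcn, Lum and Postn stayed below 1 FPKM in every library. Of 14 epithelial markers Krt7 and Krt8 alone reached testing and rose, and the list summed to 1.33 to 1.5 and 45.6 to 48.0 FPKM. Epcam and Cdh1, which define epithelial cells, did not exceed 0.0232 and 0.0227 FPKM in any library. Immune markers summed to 9.16 to 11.03 and 8.87 to 10.3 FPKM, with Ptprc at or below 0.04 FPKM, and endothelial markers to less than 1 FPKM in either group. Of 8 immediate early and heat shock genes, which respond to handling of cells, 6 were tested, and 3 rose and 3 fell. Their list summed to 114 to 119 FPKM in Biotin-negative and 85.4 to 88.3 FPKM in Biotin-positive libraries. The part of any of these in the nucleolar differences was not tested.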

How the data were processed

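RNA-seq of 6 libraries was used, 3 per group, with groups and replicate numbers from the labels. The submitters' processing notes name cutadapt 1.9.1, HISAT2 2.2.1, HTSeq 0.6.1 and GRCm39, with no roles or order. The authors deposited FPKM values, 1 column per library; the program, the denominator and the use of strand are not given in the sources used here. Coordinates in the file equal those of GENCODE vM21 on GRCm38 for 21616 of 21816 shared genes, so they are given here as GRCm38, and the build used for alignment was not settled. Low values showed no steps of single reads, so depth is unknown and no interval from counts is given; precision is the spread of 3 libraries.

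Symbols were matched on the gene name, else the MGI symbol. Genes that reached 1 FPKM in 3 or more libraries were tested with limma 3.58.1 in R 4.3.3 (eBayes with trend, two-sided, pseudocount 1, Benjamini-Hochberg). Intervals are 95% from the same fit. The procedure was also run on simulated data in which few genes changed, whereas most genes passed here. That run does not speak for the small differences described here. Values for every library are given for the 3 genes with the largest passing difference in each step (2 in each particle class) and for all that did not pass, with Npm1 added as the most abundant; from the further genes the 4 largest rises and falls with at least 5 FPKM in the higher group are named, others having been chosen after their values were seen. The members and lists were chosen with earlier results of these data known. Near-identical matches (at least 98% identity over 100 bases, blastn 2.17.0, longest protein-coding transcript) came from GENCODE vM21, as did exon overlaps. Alternatives were pseudocounts, filters, 3 scalings, prior settings, a replicate term and leaving out each library.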

Additional observations from a re-analysis of the deposited data

How the results depend on the processing

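Of the 40 nucleolar genes, 28 kept their call under all 16 alternatives. The median log2 difference of the 40 genes moved from -0.06 to -0.11 after quantile normalization and to -0.12 at equal library sums, and the number of rises went from 11 to 7 at equal library sums. Over all tested genes the median went from 0.01 to -0.01 and to -0.04, and the rises from 4168 to 3688 at equal sums. The cause was not tested. Of the genes that passed, Ncl alone changed sign under an alternative, to -0.0158 after quantile normalization; among those that did not pass, Polr1a, Ddx21, Nop58, Nop14 and Wdr12 changed sign under at least 1. The number with a log2 difference of at least 0.5 was 3 under every alternative except quantile normalization (4). Leaving out 1 library at a time gave 9 to 10 rises and 15 to 17 falls. With the replicate number as a block 11 rose and 16 fell, as without it. The labels do not tie equal numbers together, and deviations of same-numbered libraries correlated at 0.0371, 0.0120 and 0.0143, with replicate 2 of the Biotin-negative group closer to replicate 3 of the other group (0.0341), so the numbers were not used as pairs. Depth is unknown, so which small differences it limits cannot be said.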
